A study of Mus musculus with 6 samples.

Results

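DNA methylation writers and erasers were followed in RNA-seq of control and senescent mouse adult fibroblasts (MAFs). The set holds 9 of the 43346 genes in the count table and was chosen by gene name. Its members are the methyltransferase genes *Dnmt1*, *Dnmt3a* and *Dnmt3b*, and the UHRF family genes *Uhrf1* and *Uhrf2*. The others are the methylcytosine oxidase genes *Tet1*, *Tet2* and *Tet3*, and the thymine DNA glycosylase gene *Tdg*. MAFs are primary cells grown out of ear tissue from female C57BL6/J mice of adult age, and the study grew them in 3% oxygen for no more than 8 passages. Senescent cells (3 samples) received 20 Gy of X-rays and were cultured for 21 further days, and control cells (3 samples) were sham irradiated. Cells of both groups were synchronized with 100 nM dexamethasone, a glucocorticoid, for 2 hours and collected 12 hours later, so all values describe a single time point. The labels do not say whether the 3 samples of a group came from separate cultures or animals, and p-values therefore measure the spread between these samples, which may be technical.

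Total counts per library ranged from 50288454 to 82229553. The sampling noise was exceeded by every pair of replicates, most by senescent replicate 3 against senescent replicate 2, with a median squared difference of 33.2 times that of chance, against 2.33 times for senescent replicates 1 and 2. The proliferation marker *Mki67* was lower in senescent cells, with a log2 fold change of -5.94, and the cell cycle inhibitor genes *Cdkn1a* and *Cdkn2a* were higher, at 2.33 and 1.90. All 8 fibroblast markers exceeded 1 CPM (counts scaled by library size) in every library, with a summed level of 17576 to 19648 CPM in control and 6495 to 7742 CPM in senescent cells. These 8 did not move together, since *Dcn*, *Thy1* and *Lum* were higher in senescent cells, with log2 fold changes of 3.50, 1.47 and 0.85, and the collagen genes, *Pdgfra* and *Vim* were lower. Chondrocyte markers were also present, 4 of 4 in every library, with sums of 4636 to 5156 CPM in control and 311.5 to 380.1 CPM in senescent cells. Keratinocyte, macrophage, endothelial, muscle, and Schwann cell or melanocyte markers each summed to at most 27.6 CPM in any library. Endothelial markers summed to 2.43 to 2.83 CPM in control and 7.38 to 8.08 CPM in senescent libraries, and macrophage markers to 5.57 to 6.01 and 9.22 to 10.9 CPM. Single markers also differed, with log2 fold changes of 5.99 for the keratinocyte gene *Krt15*, 3.81 for *Kdr* and 2.95 for *Ptprc*, while *Sox10*, *Tyr* and *Myod1* had 0 counts in all control libraries and at most 34 in a senescent library. The part of these markers in the results on DNA methylation genes was not tested.

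In mammalian cells, methyl groups are placed on cytosines that precede guanines (CpG sites). After DNA replication, UHRF1 binds sites that carry the mark on the old strand alone and brings DNMT1, which copies the mark to the new strand, while DNMT3A and DNMT3B add it at sites that had none. TET enzymes oxidize the methyl group, TDG excises the oxidized base, and base excision repair restores an unmodified cytosine. Loss of maintenance during cell division also dilutes the mark, and the methylation of DNA itself was not measured in these samples.

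All 9 genes were lower in senescent than in control cells. The quasi-likelihood test of edgeR, adjusted over 17589 tested genes after Benjamini and Hochberg, put 9 of 9 genes lower past an adjusted p of 0.05, and 0 higher. Of all tested genes, this rule called 70.3%, with 34.1% lower and 36.2% higher. At an unadjusted p under 0.05 the count of higher genes among the 9 was also 0, as it was with DESeq2. The study's methods ask for more than 2-fold at an unadjusted p under 0.05, and by that rule 3 of the 9 genes were lower (*Uhrf1*, *Tet1* and *Dnmt1*). It called 30.1% of all tested genes, 12.3% as lower and 17.8% as higher. For its own gene count in these samples, the paper's results state a different p threshold, which was not applied here. The control and senescent values of the 9 genes did not overlap, with every control library above every senescent library, a pattern seen in 37% of all tested genes, and 75.3% showed no overlap in either direction. The median log2 fold change was -0.82 over the 9 genes and 0.01 over all tested genes. In RNA taken from whole cultures, less RNA per cell and fewer cells that express a gene cannot be told apart.

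**Figure D1:**
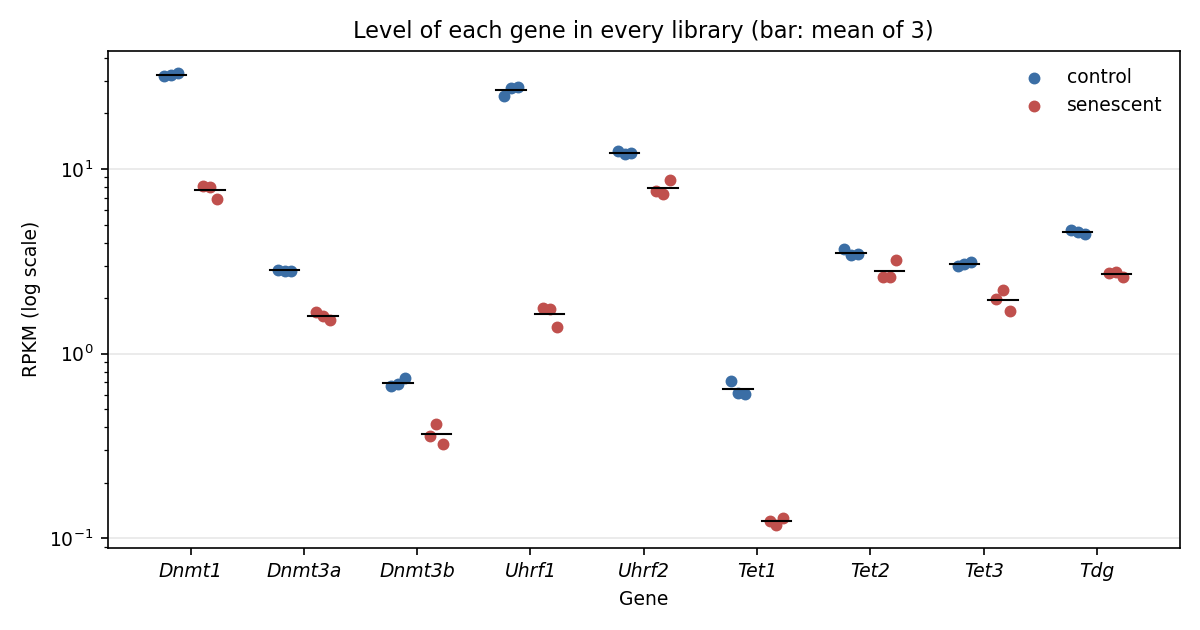
Level of each gene in every library, in reads per kilobase of gene model, scaled by library size (RPKM, log scale), with 3 control and 3 senescent libraries per gene and a bar at the mean. In control cells *Dnmt1* and *Uhrf1* lie highest, and in senescent cells *Uhrf1* lies beside *Dnmt3a* at 1.63 and 1.60 RPKM.

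**Figure D2:**
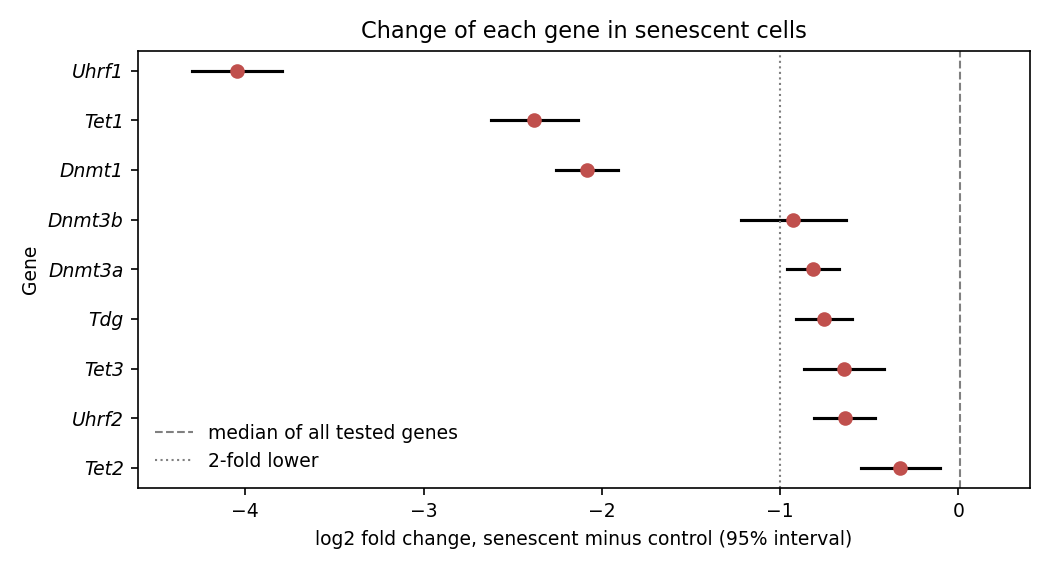
Log2 fold change of each gene, senescent minus control, from edgeR's quasi-likelihood fit, with its 95% interval. Dashed and dotted lines mark the median of all tested genes and a decrease of 2-fold, and *Uhrf1*, *Tet1* and *Dnmt1* lie wholly beyond the latter.

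*Uhrf1* and *Dnmt1*, genes of maintenance methylation, were lower by more than 2-fold, and *Uhrf2* by less. *Uhrf1* (ENSMUSG00000001228, chromosome 17 of mm10 from 56303321 to 56323486), which encodes the reader of hemimethylated DNA, was at 25.0, 27.6 and 27.9 RPKM in control replicates 1, 2 and 3. RPKM are scaled counts divided by the length of the gene model, so comparisons between genes depend on that length. In senescent replicates 1, 2 and 3 *Uhrf1* was at 1.76, 1.74 and 1.39 RPKM. No senescent library came near a control library, and senescent replicate 3 was lowest. *Uhrf1* was 16.5-fold lower, a log2 fold change of -4.05 (standard error, SE, 0.11, adjusted p = 5.12e-08, edgeR), and 0.824% of all tested genes had a lower log2 fold change.

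*Dnmt1* (ENSMUSG00000004099, chromosome 9 from 20907206 to 20959888), the maintenance methyltransferase gene, was at 31.9, 32.5 and 33.0 RPKM in control and at 8.09, 8.02 and 6.91 RPKM in senescent replicates 1, 2 and 3. The control libraries differed little among themselves, and senescent replicate 3 was again the lowest. *Dnmt1* was 4.24-fold lower, a log2 fold change of -2.08 (SE 0.07, adjusted p = 2.01e-07, edgeR). With a mean of 7.67 RPKM it remained the most abundant of the methyltransferase genes in senescent cells.

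*Uhrf2* (ENSMUSG00000024817, chromosome 19 from 30030513 to 30093722) encodes a protein of the same domain structure as UHRF1. It was at 12.5, 12.0 and 12.2 RPKM in control and at 7.61, 7.35 and 8.68 RPKM in senescent replicates 1, 2 and 3. Here senescent replicate 3 was the highest of its group and still lay below all control libraries. The decrease was 1.56-fold, with a log2 fold change of -0.64 (SE 0.07, adjusted p = 0.000122, edgeR).

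*Uhrf1* fell further than *Uhrf2* in senescent cells. The ratio of *Uhrf1* to *Uhrf2* in RPKM was 2.00, 2.30 and 2.28 in the control libraries and 0.231, 0.237 and 0.160 in the senescent libraries. On the log2 scale the ratio changed from 1.13 ± 0.114 to -2.28 ± 0.317 (SD, n = 3 per group), a difference of -3.41. Ratios were compared by an exact two-sided permutation test, in which 3 samples against 3 cannot give a p below 0.1, and this ratio reached that value (p = 0.1, and 0.15 after Benjamini-Hochberg adjustment over 6 ratios). *Uhrf1* made up 68.6% ± 1.72 of the RPKM sum of both genes in control and 17.2% ± 2.99 in senescent cells (SD, n = 3 per group). Ratios and shares depend on the gene models, of 4259 bases for *Uhrf1* and 8590 for *Uhrf2*, while the log2 difference does not. In CPM, control replicates 1, 2 and 3 held 106, 118 and 119 for *Uhrf1* and 108, 103 and 105 for *Uhrf2*. Senescent replicates 1, 2 and 3 held 7.49, 7.42 and 5.91 CPM for *Uhrf1* and 65.4, 63.1 and 74.5 CPM for *Uhrf2*.

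RefSeq promoter windows (build GRCm38.p6, from 250 bases before to 50 after a start site) were searched for short motifs, since genes of DNA replication are known to be driven through E2F sites. The table holds 14 windows for the 9 genes, because *Dnmt1* and *Dnmt3a* have 3 start sites each and *Uhrf1* has 2. The counts are per gene and do not tell which start site was used. The letters TTTCCCGC, TTTCGCGC, TTTGCCGC or TTTGGCGC, forms of the E2F site, occurred on either strand in windows of *Dnmt1* and *Uhrf1* and in none of the other 7 genes. They were found in 2 of the 14 windows, in 2.26% of all 32851 windows, and in 7 of 18 windows of the 17 S phase genes that had a window under their symbol, of 23 in the list. The stretches that hold them are shown with motif letters in capitals, E2F letters in the first pair and E2F and CCAAT letters in the longer one. In *Dnmt1* the matches begin 219 bases before and 34 bases after the most downstream start site, both within annotated exons, and in *Uhrf1* the match begins 185 bases before the downstream start site, in the first intron of the longer transcripts.
Dnmt1, chr9:20952827-20952852, minus strand: gtttccgcgcGCGCGAAAaagccggg
Dnmt1, chr9:20952575-20952600, minus strand: cggggcagcgTTTGGCGCgggctgtg
Uhrf1, chr17:56304063-56304312, plus strand: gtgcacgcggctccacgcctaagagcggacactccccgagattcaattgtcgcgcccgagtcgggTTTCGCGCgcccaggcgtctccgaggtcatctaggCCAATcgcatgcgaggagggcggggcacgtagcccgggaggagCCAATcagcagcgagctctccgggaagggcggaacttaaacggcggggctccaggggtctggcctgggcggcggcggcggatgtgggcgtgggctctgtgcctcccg
CCAAT on either strand, the letters bound by NF-Y, was in windows of 4 genes (*Dnmt1*, *Uhrf1*, *Tet3* and *Tdg*). It was in 6 of the 14 windows and in 37.4% of all windows. TTTGAA, the letters of the cell cycle genes homology region, was in windows of *Dnmt1* and *Dnmt3b*, 2 of the 14, and in 17.9% of all windows. A match is a run of letters and not a measured binding site.

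The de novo methyltransferase genes were lower by less than 2-fold. *Dnmt3a* (ENSMUSG00000020661, chromosome 12 from 3806007 to 3914443) was at 2.85, 2.81 and 2.82 RPKM in control and at 1.68, 1.60 and 1.52 RPKM in senescent replicates 1, 2 and 3. The control values were tight, with an SD of 0.0214 RPKM around a mean of 2.82 RPKM, and lay above all senescent values. The log2 fold change was -0.82 (SE 0.06, adjusted p = 1.13e-05, edgeR), which is 1.76-fold lower. Its gene model of 16642 bases is the longest of the 9, which lowers RPKM for transcripts that are shorter than the model.

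*Dnmt3b* (ENSMUSG00000027478, chromosome 2 from 153649450 to 153687730) was the least abundant methyltransferase gene, with 101 to 210 counts per library. It was at 0.668, 0.688 and 0.736 RPKM in control and at 0.357, 0.418 and 0.325 RPKM in senescent replicates 1, 2 and 3. All senescent values were lower than all control values, by 1.90-fold on average. The log2 fold change was -0.93 (SE 0.13), with a 95% interval from -1.22 to -0.63 (adjusted p = 0.000318, edgeR), which includes a decrease of 2-fold.

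The ratio of *Dnmt3a* to *Dnmt3b* was 2.02 ± 0.0795 in control and 2.14 ± 0.170 in senescent cells on the log2 scale (SD, n = 3 per group), and the groups overlapped (exact permutation p = 0.3, adjusted 0.3). The ratio of *Dnmt1* to *Dnmt3a* fell from 11.2, 11.6 and 11.7 in the control libraries to 4.80, 5.0 and 4.53 in the senescent libraries, a log2 difference of -1.27 without overlap (exact permutation p = 0.1, adjusted 0.15). The summed level of the methyltransferase genes was 36.0 ± 0.547 RPKM in control and 9.64 ± 0.766 RPKM in senescent cells (SD, n = 3 per group). Within this sum, *Dnmt1* made up 90.2% ± 0.114 in control and 79.5% ± 0.564 in senescent cells, *Dnmt3a* 7.85% ± 0.168 and 16.7% ± 0.720, and *Dnmt3b* 1.94% ± 0.0692 and 3.8% ± 0.327. The larger shares of *Dnmt3a* and *Dnmt3b* in senescent cells thus went with lower levels of both.

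**Figure D3:**
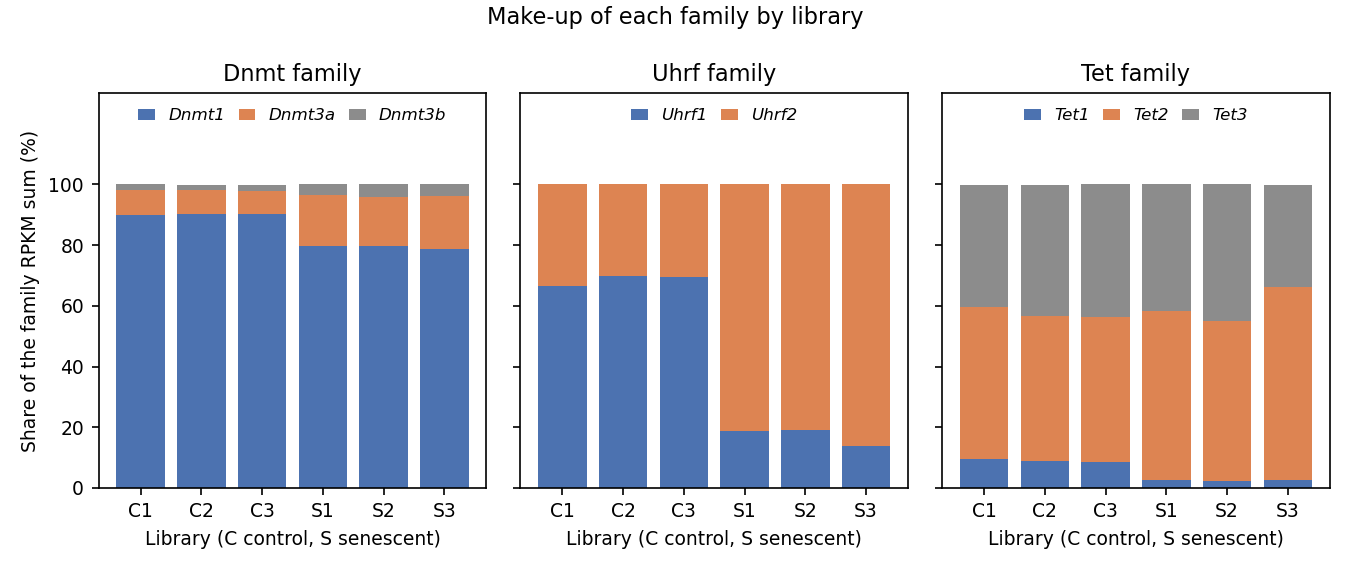
Share of each gene in the RPKM sum of its family, in percent, for control (C) and senescent (S) replicates 1 to 3, as stacked bars. *Uhrf1* fills 66.6% to 69.7% of the Uhrf bars in control and 13.8% to 19.2% in senescent libraries, and *Tet1* 8.38% to 9.61% and 2.38% to 2.64% of the Tet bars.

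Among the TET genes, the log2 fold change was lowest for *Tet1*. *Tet1* (ENSMUSG00000047146, chromosome 10 from 62804570 to 62899118), best known from embryonic stem cells and germ cells, was at 0.707, 0.615 and 0.606 RPKM in control and at 0.124, 0.118 and 0.129 RPKM in senescent replicates 1, 2 and 3. It had the lowest mean RPKM of the 9 genes in both groups, with 436 to 541 counts in control and 101 to 160 counts in senescent libraries. This rank depends on its gene model of 14710 bases. In CPM, *Dnmt3b* was lower than *Tet1* in control cells, with means of 3.56 and 9.46. In senescent cells the means were 1.87 CPM for *Dnmt3b* and 1.82 CPM for *Tet1*. The log2 fold change was -2.38 (SE 0.11, adjusted p = 5.57e-07, edgeR), a 5.20-fold decrease.

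*Tet3* (ENSMUSG00000034832, chromosome 6 from 83362373 to 83459084), known for its role in the zygote, was at 2.98, 3.06 and 3.15 RPKM in control and at 1.97, 2.21 and 1.71 RPKM in senescent replicates 1, 2 and 3. Senescent libraries spread more widely than control libraries, with replicate 3 lowest. The decrease was 1.56-fold, with a log2 fold change of -0.64 (SE 0.10, adjusted p = 0.000563, edgeR).

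*Tet2* (ENSMUSG00000040943, chromosome 3 from 133463679 to 133544390), a gene often mutated in blood cancers, changed least of the 9. It was at 3.67, 3.40 and 3.47 RPKM in control and at 2.61, 2.60 and 3.20 RPKM in senescent replicates 1, 2 and 3. Senescent replicate 3 lay close to the lowest control library and well above the other senescent libraries. The log2 fold change was -0.33 (SE 0.10, 95% interval from -0.55 to -0.10, adjusted p = 0.0161, edgeR), a 1.25-fold decrease. This call depended on single libraries: without control replicate 1, senescent replicate 1 or senescent replicate 2 the adjusted p was 0.0546, 0.0594 and 0.0558, and over all 12 alternatives it ranged from 4.56e-06 to 0.0594 with log2 fold changes from -0.43 to -0.25.

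The ratio of *Tet1* to *Tet3* fell from 0.238, 0.201 and 0.192 in the control libraries to 0.0630, 0.0531 and 0.0753 in the senescent libraries, a log2 difference of -1.73 without overlap (exact permutation p = 0.1, adjusted 0.15). The ratio of *Tet2* to *Tet3* was 0.20 ± 0.0906 in control and 0.51 ± 0.348 in senescent cells on the log2 scale (SD, n = 3 per group), and these groups overlapped (exact permutation p = 0.2, adjusted 0.24). Senescent replicate 3 held the highest value, 0.90, and senescent replicate 2 a value of 0.23 within the control range. *Tet1* made up 8.90% ± 0.641 of the TET sum in control and 2.53% ± 0.128 in senescent cells (SD, n = 3 per group). The TET sum was 7.22 ± 0.142 RPKM in control and 4.89 ± 0.176 RPKM in senescent cells.

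The window before the *Tet2* start site is the richest in CpG sites among the 14, with 57 CpG in its 300 bases, more than in 99.8% of all windows, whose median is 7. Its last 120 bases before the start site are shown with each CpG in capitals, 25 of them.
Tet2, chr3:133544391-133544510, minus strand: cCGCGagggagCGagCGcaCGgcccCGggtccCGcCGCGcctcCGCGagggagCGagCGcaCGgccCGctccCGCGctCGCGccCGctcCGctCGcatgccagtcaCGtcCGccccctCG
The 3 windows of *Dnmt1* hold 2, 12 and 33 CpG from the upstream to the downstream start site, those of *Dnmt3a* 46, 47 and 18, and those of *Uhrf1* 12 and 33. *Dnmt3b* has 30, *Uhrf2* 28, *Tdg* 26, *Tet3* 22 and *Tet1* 17 CpG. For *Tet1* and *Tet3* the window lies 11794 and 17406 bases downstream of the 5′ end of the gene model in the count table.

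*Tdg* (ENSMUSG00000034674, chromosome 10 from 82629828 to 82650799), which encodes the glycosylase that removes oxidized methylcytosine, was at 4.65, 4.57 and 4.46 RPKM in control and at 2.74, 2.76 and 2.61 RPKM in senescent replicates 1, 2 and 3. Both groups were tight and far apart. The log2 fold change was -0.76 (SE 0.07, adjusted p = 2.64e-05, edgeR), a 1.69-fold decrease. The ratio of *Dnmt1*, which sets the mark, to *Tdg*, which helps to remove it, fell from 2.83 ± 0.0545 to 1.5 ± 0.0847 on the log2 scale (SD, n = 3 per group), a difference of -1.33 (exact permutation p = 0.1, adjusted 0.15).

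The palindrome CACGTG, the E-box that BMAL1 and CLOCK bind, was in windows of *Tdg* and *Dnmt3a*, 2 of the 14, and in 7.15% of all windows. In *Tdg* it begins 28 bases before the start site, and in the stretch shown it is in capitals together with the inverse of a CCAAT box.
Tdg, chr10:82629708-82629827, plus strand: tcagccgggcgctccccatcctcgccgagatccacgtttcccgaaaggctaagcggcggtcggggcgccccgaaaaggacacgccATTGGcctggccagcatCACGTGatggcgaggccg
TGACTCA, an AP-1 site read on either strand, was in 0 of the 14 windows and in 5.20% of all windows. The RNA-seq data hold no measure of binding. GGGCGG, the GC box, was in windows of 8 of the 9 genes. It was in 11 of the 14 windows and in 35.7% of all windows.

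The order of levels in RPKM, which depends on the lengths of the gene models, differed between the groups. In control cells it ran from *Dnmt1* (32.5 RPKM) over *Uhrf1* (26.8), *Uhrf2* (12.3), *Tdg* (4.56), *Tet2* (3.52), *Tet3* (3.06), *Dnmt3a* (2.82) and *Dnmt3b* (0.697) to *Tet1* (0.643 RPKM), and only *Dnmt3b* and *Tet1* overlapped as neighbours. In senescent cells *Uhrf2* (7.88 RPKM) stood beside *Dnmt1* (7.67 RPKM) with overlapping values, followed by *Tet2* and *Tdg*, which also overlapped at 2.80 and 2.70 RPKM. *Tet3*, *Uhrf1* and *Dnmt3a* came next at 1.96, 1.63 and 1.60 RPKM, each overlapping with its neighbour. *Dnmt3b* (0.366 RPKM) and *Tet1* (0.123 RPKM) stood apart at the end. *Uhrf1* moved from place 2 to place 6. Set among all tested genes, the level of *Uhrf1* exceeded that of 87.3% of genes in control and 35% in senescent cells, and that of *Dnmt1* 89.8% and 64.0%.

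Reads of overlapping genes could have been counted on a member, since the strand setting of the counting is not given. The largest such neighbour is *Glt8d2*, which shares 367 bases with the 3′ end of *Tdg* and had 158 to 307 counts per library. *B230319C09Rik*, inside *Tet3*, had 23 to 37 counts, and the antisense genes *Dnmt3aos* and *Dnmt3bos* had at most 1 and 3 counts in any library.

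Genes with the most similar pattern were sought by the root mean square distance between log2 CPM values centred on their mean over the 6 libraries, over the 12958 genes whose mean count reached 100. With 2 groups of libraries this distance mainly compares the size of the decrease. Nearest to *Uhrf1* were *Arsi* and the replication gene *Mcm5*, at distances of 0.0577 and 0.0665, with log2 fold changes of -3.96 and -4.16. Nearest to *Dnmt1* were *Loxl4* and *Hirip3*, at 0.0314 and 0.0364. *Gfra2* and *Agfg2* were nearest to *Dnmt3b*, and *Adamts12* and *Pag1* to *Tet1*, at distances from 0.0363 to 0.0593.

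Genes around the writers and erasers were counted in lists. At an adjusted p under 0.05 (edgeR), 34.1% of all tested genes were lower and 36.2% higher. S phase genes, with which *Uhrf1* and *Dnmt1* share their timing in cycling cells, were lower in 23 of 23 cases and higher in 0 (adjusted p under 0.05, edgeR, and the same counts at an unadjusted p under 0.05 and with DESeq2). Their median log2 fold change was -2.79, with a range from -6.00 (*Tk1*) to -0.43 (*E2f1*). *Mcm5*, which encodes a subunit of the replicative helicase, was at 37.2, 40.1 and 40.1 RPKM in control and 2.33, 2.29 and 1.96 RPKM in senescent libraries. *Ccna2*, which encodes cyclin A, had a log2 fold change of -5.37. Of the 23 genes, 22 were lower by more than 2-fold at an unadjusted p under 0.05, against 12.3% of all tested genes. *E2f1* alone sets the upper end of the range. *Uhrf1* at -4.05, *Tet1* at -2.38 and *Dnmt1* at -2.08 lay within this range. *Dnmt3a*, *Dnmt3b*, *Uhrf2*, *Tdg* and *Tet3* lay within it only through *E2f1*, and *Tet2* at -0.33 lay above it.

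Partners of maintenance methylation were lower in 5 of 7 tested genes and higher in 1, with a median log2 fold change of -1.66. Over all tested genes the shares were 34.1% lower and 36.2% higher. *Hells*, which encodes the remodeler that opens DNA for methylation, was at 9.51, 8.81 and 8.44 RPKM in control and 1.01, 0.851 and 1.30 RPKM in senescent libraries, and its partner gene *Cdca7* had a log2 fold change of -1.66. *Pclaf* and *Lig1*, which encode replication proteins, changed by -5.80 and -3.76, and *Pcna* by -1.29 on the log2 scale. *Lig1*, at 20.7, 21.7 and 21.1 RPKM in control, was at 1.57, 1.60 and 1.51 RPKM in senescent libraries. *Usp7*, whose protein stabilizes UHRF1 and DNMT1, was higher with a log2 fold change of 0.19 (adjusted p = 0.0352, edgeR), a call lost without any 1 of the control libraries (adjusted p from 0.0647 to 0.124) and with a replicate term (0.0860). *Pcna* is counted in this list and in the S phase list, and *Dppa3* had too few counts for a test.

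Partners of de novo methylation moved by less than 2-fold in all tested cases. By edgeR at an adjusted p under 0.05, 34.1% of all tested genes were lower and 36.2% higher. Of 7 tested genes, 4 were lower and 0 higher by edgeR at an adjusted p under 0.05, with 0 higher also at an unadjusted p under 0.05 and with DESeq2, and their median was -0.26 on the log2 scale. The corepressor gene *Trim28* was at 60.3, 62.9 and 62.4 RPKM in control and 44.6, 45.8 and 35.8 RPKM in senescent libraries, and *Nsd1*, which encodes a histone methyltransferase, changed by -0.36. *Dnmt3l*, the cofactor of de novo methylation in germ cells, was at 0.512 ± 0.0770 RPKM in control and 0.489 ± 0.0229 RPKM in senescent cells (SD, n = 3 per group, adjusted p = 0.695, edgeR). Its log2 fold change of -0.07 had a 95% interval from -0.41 to 0.27. *Dnmt3c*, found in rodent male germ cells, had at most 2 counts in any library.

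Among 10 genes of the methyl-CpG binding domain and zinc finger families, whose MBD3, MBD5 and MBD6 are not known as readers of the mark in mammals, 2 were higher, 2 were lower and 6 did not pass the threshold, with a median log2 fold change of -0.03. The same threshold put 34.1% of all tested genes lower and 36.2% higher. *Zbtb38* and *Zbtb4*, zinc finger readers, were higher by 0.55 and 0.46 on the log2 scale. *Zbtb4* was at 9.17, 9.74 and 9.61 RPKM in control and 13.2, 13 and 13.1 RPKM in senescent libraries. *Mbd4* and *Mbd6* were lower, with log2 fold changes of -1.35 and -0.98.

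Of 14 genes for demethylation by base excision, 8 were lower and 3 higher, with a median log2 fold change of -0.35. Of all tested genes, 34.1% were lower and 36.2% higher by the same rule. *Neil3* and *Ung*, DNA glycosylase genes, changed by -5.61 and -1.86. *Neil3* was at 4.23, 4.22 and 4.19 RPKM in control and 0.102, 0.0763 and 0.0828 RPKM in senescent libraries. *Gadd45a*, a DNA damage response gene that has been linked to demethylation, was higher by 2.38, at 5.61, 5.80 and 6.05 RPKM in control and 29.1, 30.5 and 31.3 RPKM in senescent libraries. *Neil2*, another glycosylase gene, was higher by 1.29 on the log2 scale. *Mbd4* stands in this list and in the one before.

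Suppliers of the TET cofactor and TET regulators were lower in 6 of 10 genes and higher in 3, with a median log2 fold change of -0.37. Among all tested genes, 34.1% were lower and 36.2% higher. *Idh2*, which encodes a mitochondrial producer of 2-oxoglutarate, was at 36.8, 38.8 and 39.8 RPKM in control and 8.78, 8.36 and 6.08 RPKM in senescent libraries, a log2 fold change of -2.32. *Idh3a*, which encodes a subunit of the isocitrate dehydrogenase of the citric acid cycle, was higher by 0.66. *Cxxc5* was lower, with a log2 fold change of -1.15, and *Cxxc4*, a negative regulator of TET2, had 0, 0 and 1 counts in control and 21, 28 and 43 counts in senescent libraries, too few in control cells for a fold.

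The methyl donor cycle went both ways, where 7 of the 15 genes with a test were lower and 5 were higher, at a median log2 fold change of 0.07. All tested genes also went both ways, with 34.1% lower and 36.2% higher. *Ahcy*, which encodes the enzyme that clears the methyltransferase inhibitor S-adenosylhomocysteine, was at 28.5, 30.4 and 29.6 RPKM in control and 13.8, 13.8 and 11.7 RPKM in senescent libraries (log2 fold change -1.17). *Adk*, which acts on the adenosine formed in that step, changed by -0.83. *Nnmt*, which encodes a consumer of methyl groups, was higher by 1.52, and *Ahcyl2*, a relative of *Ahcy*, by 0.96 on the log2 scale.

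**Figure D4:**
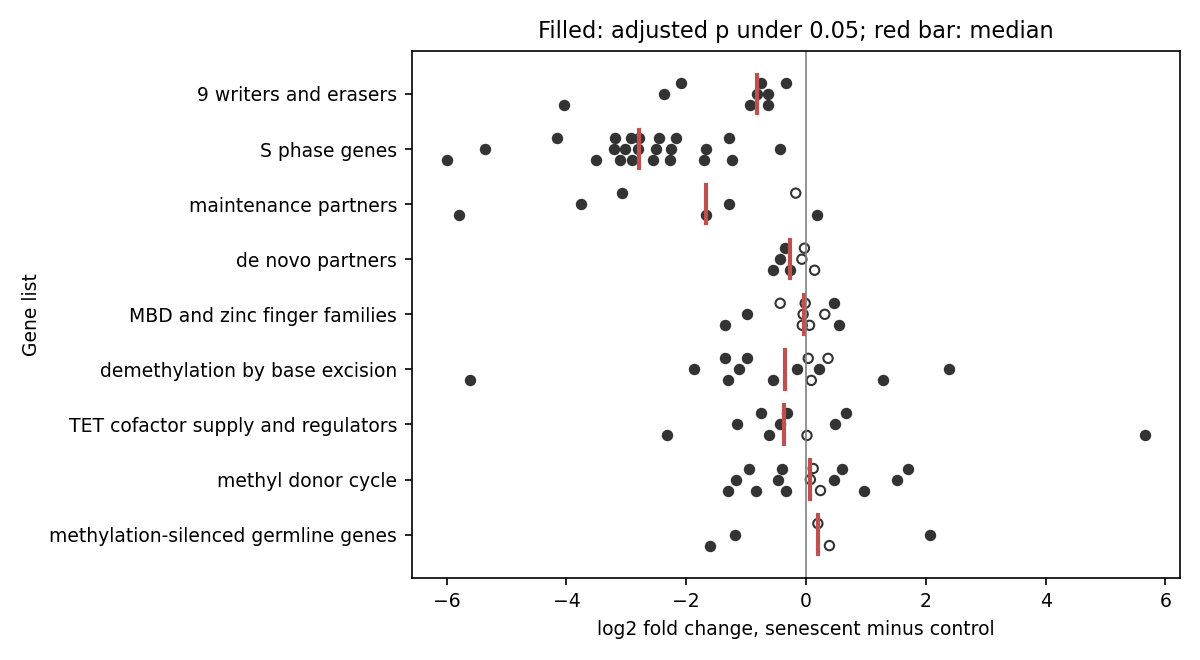
Log2 fold change, senescent minus control, of each tested gene in 9 lists. Filled points have an adjusted p under 0.05 and red bars mark list medians, from -2.79 for S phase genes to 0.20 for germline genes, with -0.82 for the 9 writers and erasers. The point at 5.66 is *Cxxc4*, a fitted value that rests on 1 count in control cells and is no measure of its fold.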

How the data were processed

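RNA-seq libraries of polyadenylated RNA from 3 control and 3 senescent samples were prepared by the authors with a stranded kit, from an input of 200 ng, and read as pairs of 100 bases. Mapping to mm10 used STAR, run by MAPRSeq, and Subread did the counting. The authors deposited raw counts for each gene and the length of its model. Strand setting, annotation release and handling of reads with several matches are not given in the sources used here. Groups and replicate numbers came from the sample titles.

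Genes were kept by edgeR's filterByExpr (17589), TMM gave the scaling factors, and senescent samples were set against control samples by the robust quasi-likelihood test of edgeR (version 4.0.16, R 4.3.3), two-sided, with the group as the only term and Benjamini-Hochberg adjustment over all genes tested. CPM and RPKM were computed here. The procedure was tested on simulated data. Alternatives were RLE scaling, library size alone, 1 count in total or 10 counts in every library as filters, DESeq2 1.42.0, a replicate term, and each library left out.

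The members and lists were chosen with earlier results of these data known. Named were all members, the checks *Mki67*, *Cdkn1a* and *Cdkn2a*, up to 2 genes with the smallest p in each direction of a list at an adjusted p under 0.05, and the 2 genes nearest to *Dnmt1*, *Uhrf1*, *Dnmt3b* and *Tet1*. *Tk1*, *E2f1*, *Hells*, *Cdca7*, *Pcna*, *Dppa3*, *Dnmt3l*, *Dnmt3c*, *Piwil2*, *Tex11*, *Stk31* and *Mov10l1*, the cell type markers and the overlapping genes were named after their values had been seen. All list genes were found, *Pclaf*, *Dnmt3c* and *Adgre1* through other symbols of the same gene. Promoter sequences came from RefSeq (GRCm38.p6, the assembly that mm10 names), and exons from GENCODE M21. A count of 0 allows up to 3 counts, and such limits cover counting error alone.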

Additional observations from a re-analysis of the deposited data

How the results depend on the processing

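The 9 genes stayed lower in all 12 alternatives. Their number past an adjusted p of 0.05 was 9 in each, except without control replicate 1, senescent replicate 1 or senescent replicate 2, where *Tet2* was lost and 8 remained. Past a fold change of 2 there were 3 or 4. Deviations from the group means correlated at -0.431, 0.327 and -0.277 between same-numbered samples. Of 3 control samples, 1 correlated best with its own number. With 3 libraries per group and senescent replicate 3 far from the others, this check cannot show whether same-numbered samples were paired. With a replicate block, 9 members were lower, 5964 genes higher and 5660 lower. Scaling moved the median of all genes by at most 0.0776 on the log2 scale.

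Over all genes, 3134 were higher past a fold change of 2 (2166 lower). This number was 5194 without a filter and 1724 with at least 10 counts in every library. In the lists, higher counts moved as follows. De novo partners went from 0 to 1 with library size alone and with 10 counts in every library, germline genes from 1 to 2 with library size alone and to 4 without a filter, maintenance partners from 1 to 0 with the replicate block, and genes of the methyl-CpG binding families from 2 to 3 with DESeq2. Germline genes lower went from 2 to 1 with 10 counts in every library, where fewer genes were tested. With a library left out, the number higher ranged from 0 to 1 for maintenance and for de novo partners, 2 to 4 for the binding families, 2 to 5 for base excision and 1 to 2 for germline genes. The highest of these for the binding families, base excision and de novo partners (4, 5 and 1) came without senescent replicate 3. For the other moves the cause was not tested. Ratios between members kept their direction without any 1 library. At 101 to 169 counts per senescent library, *Tet1* and *Dnmt3b* had the least depth.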

Other observations

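Germline genes known to be silenced by promoter methylation in somatic cells were mostly counted too rarely for a test. Of 19 such genes, 5 had enough counts for a test. Of these 5, 2 were lower and 1 was higher (edgeR, adjusted p under 0.05), with a median log2 fold change of 0.20. Over all tested genes, 34.1% were lower and 36.2% higher. *Brdt*, a gene for a testis bromodomain protein, had 185, 197 and 172 counts in control and 79, 99 and 162 counts in senescent replicates 1, 2 and 3, a log2 fold change of -1.19. *Ddx4*, a germ cell helicase gene, had 24, 28 and 33 counts in control and 5, 20 and 14 counts in senescent libraries. *Sycp3*, which encodes a protein of the synaptonemal complex, went the other way, with 4, 10 and 1 counts in control and 18, 39 and 32 counts in senescent libraries (log2 fold change 2.08, standard error 0.48). *Piwil2*, with 88 to 265 counts per library, and *Tex11* did not pass the threshold, at 0.39 and 0.20 on the log2 scale.

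More of these genes had counts above the 3 that a count of 0 allows in senescent than in control libraries. Total counts reached 82229553 in senescent libraries, against 61747564 in control libraries. Counts above 3 were reached in every library of the group by 9 genes in senescent and 6 in control cells. In at least 1 library they were reached by 15 and 8 genes. The matching shares of all genes are not given here, so these counts show no trait particular to germline genes. *Mov10l1* had 0, 2 and 0 counts in control and 13, 10 and 17 counts in senescent libraries, and *Stk31* had 0 in each control library and 1, 10 and 10 in the senescent libraries. Weakly counted genes were on balance higher in senescent libraries: the median log2 fold change was 0.31 over 29776 genes with at least 1 count and 0.01 over the 17589 tested genes. The part of library size in the detection counts and in the median over the 29776 genes was not tested.

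Senescent replicate 3, the library farthest from the others, was the highest or lowest of its group in 9 of 9 writers and erasers and in 87.1% of all tested genes. It held the highest senescent value of *Uhrf2*, *Tet1* and *Tet2* and the lowest of *Dnmt1*, *Dnmt3a*, *Dnmt3b*, *Uhrf1*, *Tet3* and *Tdg*. Without it, all 9 genes were lower (edgeR, adjusted p under 0.05), and the *Tet2* log2 fold change was -0.43.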
